A study of Homo sapiens with 10 samples.

Results

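The HOX cluster genes were examined across 4 lines of a human prostate cancer model of epithelial-mesenchymal transition (EMT) and its reverse (MET). They were taken from the gene tables as every row with a symbol made of HOX, a cluster letter from A to D and a number, which gave 37 rows holding 39 symbols among 23170 gene rows. The HOXA cluster gave 11 rows, HOXB 10, HOXC 7 and HOXD 9, and HOXC4, HOXC5 and HOXC6 shared 1 row. PC3 is an established line grown from a prostate cancer. A luciferase-carrying subpopulation of it, chosen for bioluminescence and epithelial shape, is called PC3-Epi (2 samples). PC3-EMT14 (3 samples) is a mesenchymal population recovered after PC3-Epi had been grown with macrophages made from CD14+ blood monocytes. Lentivirus was used to give PC3-EMT14 either OVOL1 or OVOL2, zinc finger transcription factors of epithelia. The first of these lines, PC3-EMT14-OVOL1, has 3 samples and is called the OVOL1 line below. The second, PC3-EMT14-OVOL2, has 2 samples and a V5 tag on its OVOL2, and is called the OVOL2 line. All 4 lines descend from the same luciferase-carrying cells, each line is 1 selected or transduced population, and the 2 OVOL lines were compared here with PC3-EMT14 itself.

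HOX genes encode homeodomain transcription factors that give cells their position along the body axis. Within each cluster the genes lie in the order in which they act, from anterior through central to posterior, and cells keep much of this code after development ends. HOXB13, the most posterior HOXB gene, is a marker of prostate epithelium, and the posterior HOXA and HOXD genes take part in the growth of the urogenital tract.

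Levels are in FPKM, fragments per kilobase of transcript scaled to sequencing depth, so they can be set beside each other between genes of different length. Each deposited table holds 1 pooled value per line, and the authors' own test columns were not used, so no difference here is set against the spread between replicates and no test was made. Differences are log2 of the ratio of (FPKM + 0.1), and a row was counted as past the fold when the difference was at least 2-fold with at least 1 FPKM in the higher line. Unless another source is named, levels of PC3-EMT14 and PC3-Epi are from the table that holds both, and those of each OVOL line from its own table against PC3-EMT14. The number of reads behind each value is unknown. In bulk RNA, fewer cells expressing a gene and less RNA per cell cannot be told apart. PC3-EMT14 stands in 3 of the 4 gene tables, and its values there differed by a nearly constant factor, at most 1.03, which is a rescaling and no measure of error. The 3 comparisons with PC3-EMT14 share that line, so their values are given side by side.

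The columns of the tables carry their own labels and were assigned to the lines from the comparison each table is named for, and which samples entered each pooled value is not given in the sources used here. The transgenes matched these assignments. OVOL1 read 0.024 FPKM in PC3-EMT14 against 11.3 in the OVOL1 line, and OVOL2 read 0.370 FPKM in PC3-EMT14 of the OVOL2 table against 831 in the OVOL2 line. PC3-Epi held 4.25 FPKM of OVOL1 and 9.91 FPKM of OVOL2. Of 6 epithelial markers, 6 were past the fold and higher in PC3-Epi, 4 in the OVOL1 line and 5 in the OVOL2 line. Among all genes with 1 FPKM in the higher line, 7.13%, 2.32% and 4.32% were higher in that order. CDH1, which encodes E-cadherin, was at 1.00 FPKM in PC3-EMT14, 50.6 in PC3-Epi, 16.2 in the OVOL1 line and 39.2 in the OVOL2 line. Of 6 mesenchymal markers, 2 were past the fold and lower in PC3-Epi, 0 in the OVOL1 line and 4 in the OVOL2 line. The shares of all such genes that were lower were 7.97%, 1.48% and 2.71%.

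Posterior genes held most of the summed HOX level, and HOXB13 led them in PC3-EMT14. In PC3-EMT14, HOXB13 stood at 89.8 FPKM and made up 40.6% of the summed HOX level, ahead of HOXA9 at 28.5 FPKM, HOXA11 at 16.9, HOXA13 at 16.5 and HOXA10 at 14.5. The 16 posterior rows, with numbers from 9 to 13, held 84.1% of that sum, the 13 central rows 12.9% and the 8 anterior rows 3.09%. In all, 20 of the 37 rows reached 1 FPKM in at least 1 table, 10 of them in HOXA, 6 in HOXB, 4 in HOXC and 0 in HOXD. The other 17 rows stayed below 1 FPKM, the highest of them HOXD4 at 0.854, and 6 of these stayed below 0.1 FPKM in every table. The 8 rows that reached 10 FPKM were HOXA9, HOXA10, HOXA11, HOXA13, HOXB9, HOXB13, HOXC13 and the shared HOXC4, HOXC5 and HOXC6 row.

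**Figure D1:**
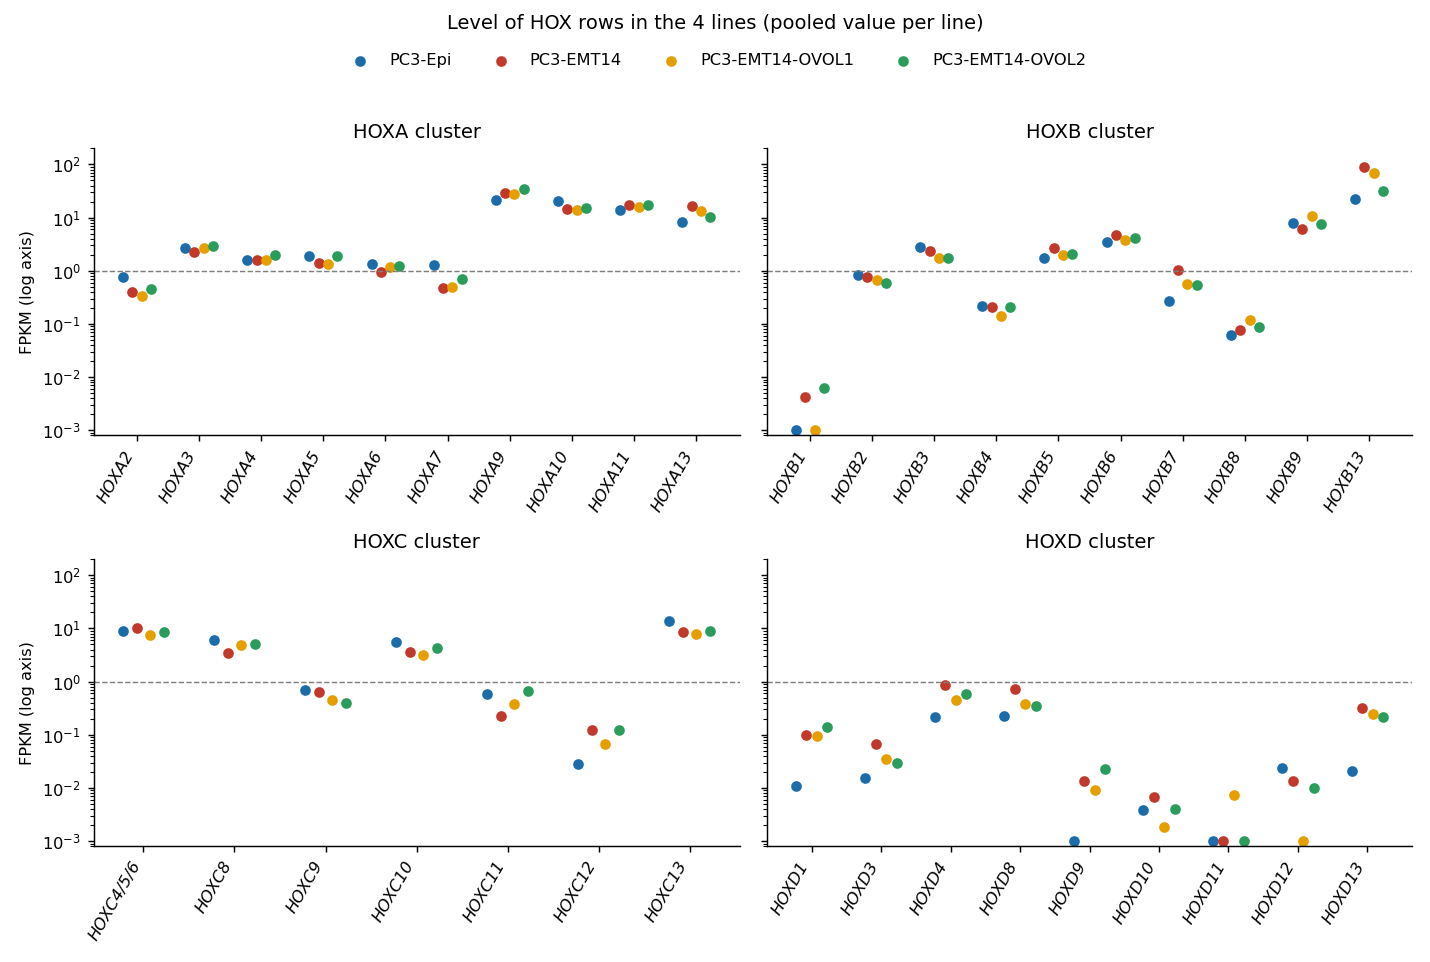
Level of 36 HOX rows (FPKM, log axis) in the 4 lines, 1 panel per cluster, with genes from anterior at the left to posterior at the right and a dashed line at 1 FPKM. Each point is the pooled value of a line, PC3-EMT14 and PC3-Epi from the same table, and values under 0.001 FPKM are drawn at 0.001; HOXB13 is the highest point of PC3-EMT14 at 89.8 FPKM, and no HOXD point reaches 1 FPKM.

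HOXB13 was lower in all 3 epithelial or OVOL-carrying lines than in PC3-EMT14. The gene lies at chr17:46802127-46806111 (hg19, minus strand). PC3-Epi held 22.2 FPKM against 89.8 in PC3-EMT14, 4.03-fold lower. The OVOL2 line held 31.7 FPKM against 86.9, 2.74-fold lower, and the OVOL1 line held 67.6 against 87.8, 1.30-fold lower. The 2 OVOL lines set against each other gave 31.7 FPKM with OVOL2 and 66.9 with OVOL1, 2.11-fold lower with OVOL2. From high to low the lines were therefore PC3-EMT14, OVOL1, OVOL2 and PC3-Epi. Among all genes with at least 1 FPKM in the higher line, 2.94% were at least as far lower as HOXB13 in PC3-Epi, 1.39% in the OVOL2 line and 8.59% in the OVOL1 line, and 1.04% in the OVOL2 line against the OVOL1 line.

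HOXB13 carried most of the difference in the summed HOX level. The sum over the 37 rows was 220.9 FPKM in PC3-EMT14 and 150.3 in PC3-Epi, which is 32.0% lower, and without HOXB13 it was 131.2 and 128.1 FPKM, 2.32% lower. In the OVOL2 line the sum was 22.9% below PC3-EMT14 (164.9 against 214.0 FPKM), and without HOXB13 it was 4.81% above. For the OVOL1 line the sum was 11.1% below (192.2 against 216.2 FPKM), and 3.01% below without HOXB13. HOXA9, at 34.3 FPKM, stood above HOXB13 in the OVOL2 line, and HOXB13, HOXA9 and HOXA10 lay close together in PC3-Epi at 22.2, 21.2 and 20.6 FPKM.

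**Figure D2:**
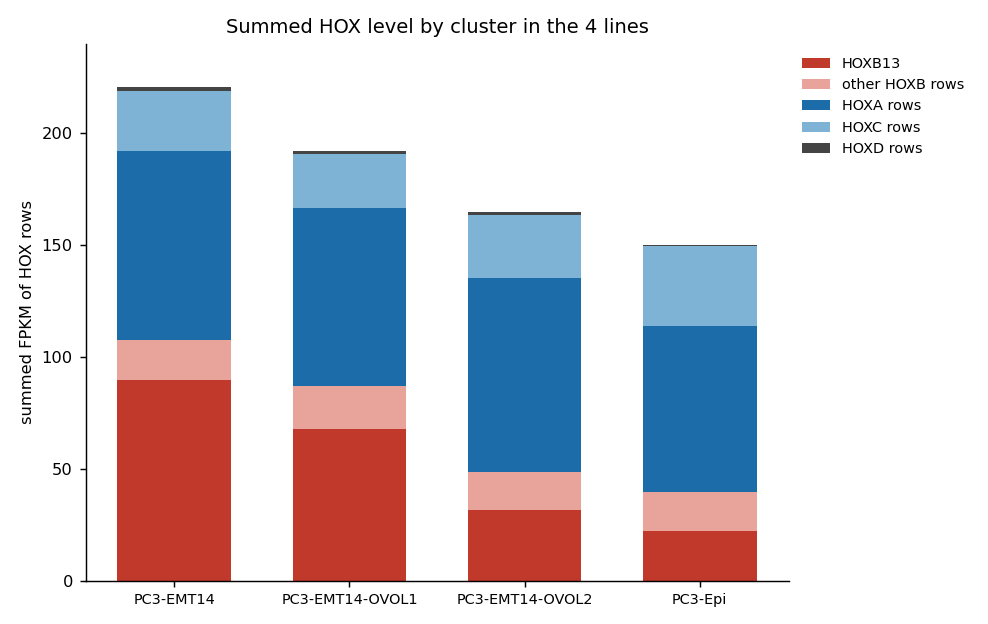
Summed FPKM of the HOX rows in the 4 lines (bars, linear axis from 0), split into HOXB13, the other HOXB rows, HOXA, HOXC and HOXD. The HOXB13 block takes 40.6% of the bar of PC3-EMT14 and 14.8% of that of PC3-Epi, while the rest of those 2 bars differs by 2.32%.

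By cluster, the HOXB sum was 63.3% lower in PC3-Epi than in PC3-EMT14 and the HOXA sum 11.6% lower, whereas the HOXC sum was 33.7% higher. The HOXB rows other than HOXB13 summed to 18.0 FPKM in PC3-EMT14 and 17.4 in PC3-Epi. In the OVOL2 line the HOXB sum was 53.6% lower, the HOXA sum 6.27% higher and the HOXC sum 9.23% higher. In the OVOL1 line the HOXB sum was 17.4% lower, the HOXA sum 3.55% lower and the HOXC sum 7.49% lower. Without HOXB13, the HOXB sum was instead 10.5% higher in the OVOL1 line, and it was 4.10% lower in the OVOL2 line. The lower HOXC sum in the OVOL1 line likewise rested on the row shared by HOXC4, HOXC5 and HOXC6. Without that row it was 16.8 FPKM, against 16.6 in PC3-EMT14 as scaled in the comparison with PC3-Epi. PC3-EMT14 values there were a median of 1.02 times those in the comparison with the OVOL1 line. The HOXD rows summed to 2.11 FPKM in PC3-EMT14 and 0.516 in PC3-Epi.

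Few other HOX rows were past the fold. Of 20 HOX rows with 1 FPKM in the higher line of the comparison of PC3-Epi with PC3-EMT14, 1 was higher in PC3-Epi (HOXA7) and 2 were lower (HOXB7 and HOXB13). That is 15% of these rows, beside 15.1% of all such genes, of which 7.13% were higher and 7.97% lower. The OVOL1 line had 0 of 19 HOX rows past the fold, beside 3.8% of all genes, 2.32% higher and 1.48% lower. The OVOL2 line had 1 of 19, HOXB13, lower, which is 5.26% of the rows beside 7.04% of all genes, 4.32% higher and 2.71% lower. When the OVOL2 line was set against the OVOL1 line, 1 of 18 HOX rows was past the fold, HOXB13 again, lower, which is 5.56% beside 2.87% of all genes, 1.75% higher and 1.12% lower. With so few rows, 0 or 1 past the fold in the OVOL comparisons does not set the HOX rows apart from the background. The median log2 difference of the HOX rows was 0.20 in PC3-Epi, -0.07 in the OVOL1 line and 0.12 in the OVOL2 line, beside -0.01, -0.00 and -0.04 over all genes. Without regard to sign, the median size was 0.437, 0.289 and 0.349 log2 for the HOX rows and 0.355, 0.153 and 0.205 for all genes. HOX rows were also lower in level than other genes, with a median of 5.09 FPKM in the higher line of the PC3-Epi comparison against 12.6 over all genes.

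**Figure D3:**
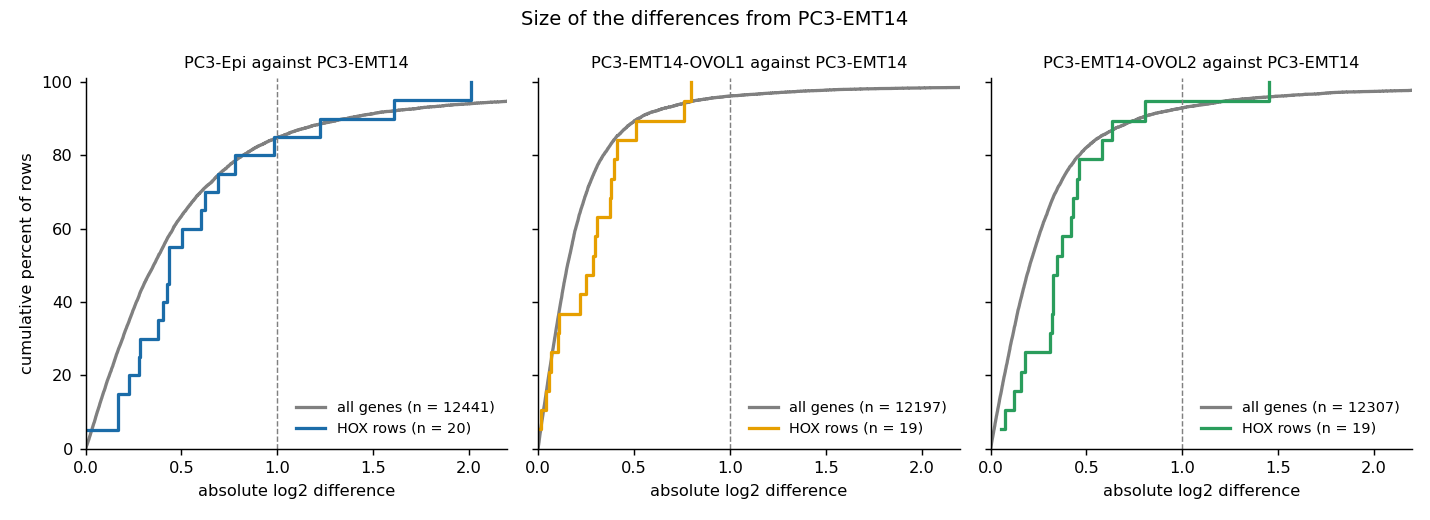
Cumulative percent of rows (vertical axis) by absolute log2 difference from PC3-EMT14 (horizontal axis) for the HOX rows and for all genes with 1 FPKM in the higher line, 1 panel per comparison, with a dashed line at 2-fold. The axis ends at 2.2; in the OVOL1 panel all 19 HOX rows lie to the left of the 2-fold line, while their median size of 0.289 is above the 0.153 of all genes.

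Anterior genes, which pattern the hindbrain and neck, were low in every line. HOXA3 stood at 2.21 FPKM in PC3-EMT14, 2.70 in PC3-Epi, 2.66 in the OVOL1 line and 2.96 in the OVOL2 line, and HOXB3 at 2.38, 2.81, 1.77 and 1.70 FPKM in the same order of lines. The HOXA3 values were above PC3-EMT14 in the other 3 lines, and those of HOXB3 were above it in PC3-Epi and below it in both OVOL lines.

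Central genes, which pattern the trunk, held the only row past the fold and higher. HOXA7 was at 0.482 FPKM in PC3-EMT14 and 1.26 in PC3-Epi, a log2 difference of 1.22, and at 0.485 in the OVOL1 line and 0.704 in the OVOL2 line. HOXB7, its paralog in the HOXB cluster, went the other way with 1.04 FPKM in PC3-EMT14, 0.275 in PC3-Epi, 0.561 in the OVOL1 line and 0.536 in the OVOL2 line. The log2 differences of HOXB7 were -1.61, -0.76 and -0.80. Both rows lie close to the 1 FPKM limit, and the lines other than PC3-EMT14 were all below it for HOXB7.

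Of the other central HOXA genes, HOXA4 read 1.61 FPKM in PC3-EMT14, 1.62 in PC3-Epi, 1.62 in the OVOL1 line and 2.01 in the OVOL2 line. HOXA5 read 1.38, 1.86, 1.36 and 1.88 FPKM in that order, and HOXA6 read 0.946, 1.32, 1.17 and 1.22 FPKM. In the comparison with the OVOL1 line itself, PC3-EMT14 read 1.35 FPKM for HOXA5, so the OVOL1 line was higher by 0.01 log2. HOXC8 was above PC3-EMT14 in each of the other lines, with 3.48 FPKM in PC3-EMT14, 6.05 in PC3-Epi, 4.91 in the OVOL1 line and 5.10 in the OVOL2 line. HOXB5 read 2.73, 1.77, 2.004 and 2.10 FPKM and HOXB6 4.69, 3.44, 3.72 and 4.06 FPKM, both below PC3-EMT14 in each of the other lines. HOXB5 and HOXB6 are listed at the same locus as LOC404266, so how reads were divided between them bears on these values.

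The row shared by HOXC4, HOXC5 and HOXC6 read 10.2 FPKM in PC3-EMT14, 9.04 in PC3-Epi, 7.45 in the OVOL1 line and 8.67 in the OVOL2 line. Its isoforms named HOXC6 held 82.3% of the row in PC3-EMT14 and 77.5% in PC3-Epi, with 8.37 and 7.01 FPKM. The HOXC5 isoforms read 1.15 and 1.21 FPKM and the HOXC4 isoforms 0.649 and 0.821 FPKM in those lines.

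Posterior genes, which pattern the lower trunk, limbs and urogenital tract, gave the highest levels and, of those with at least 1 FPKM, only HOXB13 was past the fold. HOXA13 came nearest to 2-fold among the others, with 16.5 FPKM in PC3-EMT14, 8.29 in PC3-Epi, 13.6 in the OVOL1 line and 10.3 in the OVOL2 line. Its log2 differences were -0.98, -0.25 and -0.63, so the order of the 4 lines was the same for HOXA13 as for HOXB13. HOXC13, the paralog of both, was instead highest in PC3-Epi at 13.9 FPKM, against 8.57 in PC3-EMT14, 7.75 in the OVOL1 line and 9.03 in the OVOL2 line. HOXD13, the remaining paralog, was at 0.323 FPKM in PC3-EMT14 and 0.021 in PC3-Epi, under the level at which a fold was counted. HOXC11, also under that level, read 0.226 FPKM in PC3-EMT14, 0.589 in PC3-Epi, 0.380 in the OVOL1 line and 0.667 in the OVOL2 line.

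HOXA9 read 28.5 FPKM in PC3-EMT14, 21.2 in PC3-Epi, 27.8 in the OVOL1 line and 34.3 in the OVOL2 line, so PC3-Epi and the OVOL2 line lay on opposite sides of PC3-EMT14. HOXA10, which like HOXA11 patterns the reproductive tract, read 14.5, 20.6, 13.6 and 14.9 FPKM, and HOXA11 read 16.9, 13.9, 15.9 and 17.0 FPKM. HOXB9 was highest in the OVOL1 line, at 10.5 FPKM against 6.12 in PC3-EMT14, 7.97 in PC3-Epi and 7.46 in the OVOL2 line. Its difference of 0.80 log2 in the OVOL1 line was the largest of the 19 HOX rows there. HOXC10 read 3.53 FPKM in PC3-EMT14, 5.48 in PC3-Epi, 3.21 in the OVOL1 line and 4.31 in the OVOL2 line.

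**Figure D4:**
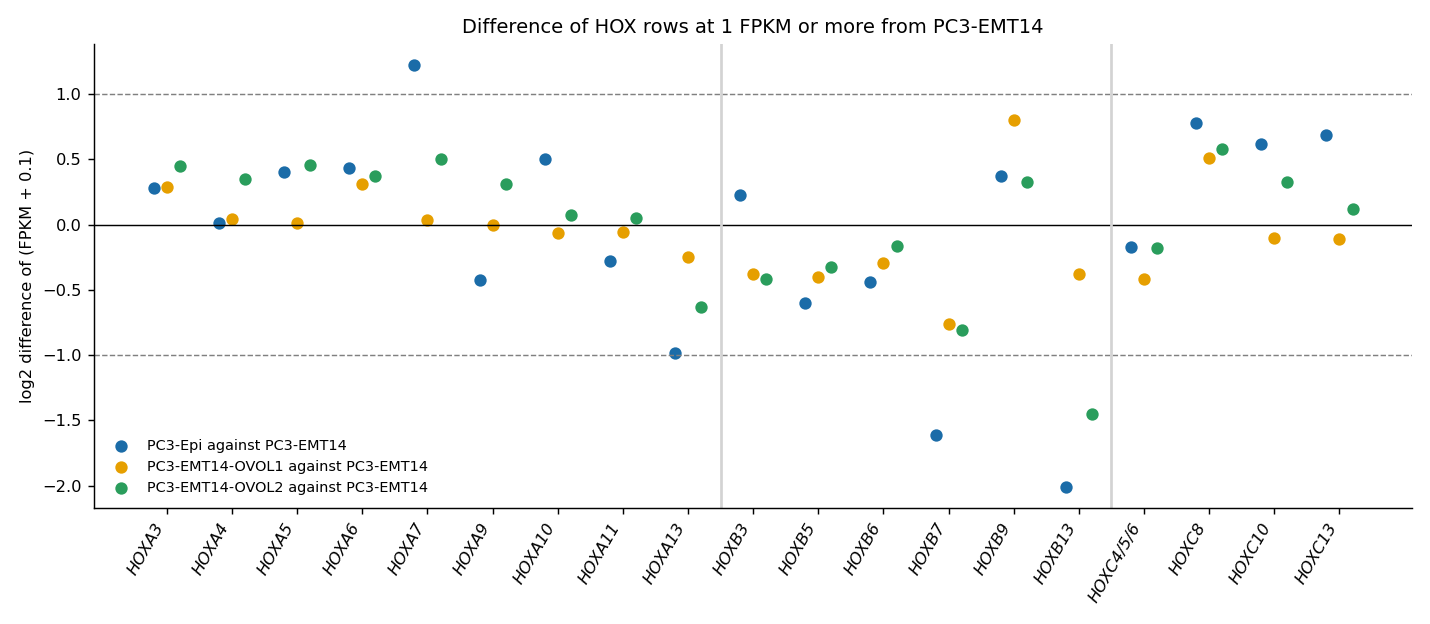
Log2 difference of (FPKM + 0.1) from PC3-EMT14 for 19 of the HOX rows that reached 1 FPKM in a table, in PC3-Epi, the OVOL1 line and the OVOL2 line, ordered by cluster and number, with dashed lines at 2-fold. HOXB13 at -2.01 and HOXB7 at -1.61 lie below the lower line in PC3-Epi, HOXA7 at 1.22 lies above the upper line, and HOXA7 did not reach 1 FPKM in the tables of the OVOL lines against PC3-EMT14.

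HOXA10 is one of 5 HOX rows with more than 1 isoform. Its higher level in PC3-Epi lay in 1 of its 2 isoforms, which read 10.4 FPKM in PC3-EMT14 and 16.7 in PC3-Epi while the other read 4.16 and 3.91 FPKM. In the OVOL2 line the same 2 isoforms read 8.96 and 5.90 FPKM, against 10.1 and 4.02 in PC3-EMT14. The order of levels over the HOX rows with 1 FPKM was much alike between lines, with a Spearman rho of 0.958 between PC3-Epi and PC3-EMT14 over 20 rows, 0.975 for the OVOL1 line over 19 and 0.967 for the OVOL2 line over 19. All genes gave 0.897, 0.961 and 0.949 by the same measure. These describe pooled values from 1 table each, whose rows share the same libraries.

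The promoters of HOXA7 and HOXA13 are shown because HOXA7 was the only HOX row higher past the fold and HOXA13 the row nearest to the limit on the lower side. Both come from RefSeq (GRCh38.p14). The promoter table used here gives windows of 300 bases, from 250 before to 50 after the start, and 20 of the 39 HOX genes were matched in it, HOXB13 not among them. They lie on the minus strand at chr7:27156626-27156925 (HOXA7) and chr7:27200042-27200341 (HOXA13), and capitals mark matches to 6 motifs searched on both strands.
HOXA7: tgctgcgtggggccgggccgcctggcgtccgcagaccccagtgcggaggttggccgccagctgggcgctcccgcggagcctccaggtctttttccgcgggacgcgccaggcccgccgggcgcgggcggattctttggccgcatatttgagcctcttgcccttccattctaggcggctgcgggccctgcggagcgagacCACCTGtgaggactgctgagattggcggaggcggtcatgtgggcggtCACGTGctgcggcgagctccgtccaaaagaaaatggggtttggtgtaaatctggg
HOXA13: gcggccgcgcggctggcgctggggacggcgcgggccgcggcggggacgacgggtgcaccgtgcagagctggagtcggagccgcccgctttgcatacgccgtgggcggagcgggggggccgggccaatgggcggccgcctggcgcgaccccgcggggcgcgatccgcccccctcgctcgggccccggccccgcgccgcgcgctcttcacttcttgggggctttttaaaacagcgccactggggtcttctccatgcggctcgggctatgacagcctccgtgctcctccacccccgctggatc

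The HOXA7 window holds CACCTG, the E-box read by ZEB and SNAI repressors, 52 bases before the start, and CACGTG, the E-box read by MYC and related factors, 5 bases before it. The HOXA13 window holds none of the 6 motifs and has 76.3% G and C, against 68% in HOXA7. HOXA7 held the only CACCTG among 26 HOX windows (3.85%), beside 20.6% of all 34943 windows. CACGTG was in 9 of the 26 (34.6%), beside 7.23% of all windows. The 26 windows belong to 20 genes. Those with CACGTG were HOXA3, HOXA4, HOXA7, HOXA9, HOXD1, HOXD3, HOXD10, HOXD11 and HOXD13, and no HOXD row reached 1 FPKM. TGATTGAT, a site of HOX and PBX proteins together, was in 2 HOX windows (7.69%, all windows 0.487%), and TATAAA, the TATA box, was in 5 (19.2%, all windows 11.6%). CCGTTA, the core of the OVOL site, was in 0 of 26 (all windows 3.07%), and TTTATGGC, a form of the posterior HOX site, in 0 of 26 (all windows 0.587%). The motifs do not overlap in the HOXA7 window, a match is only a match of letters, and an absent match says nothing about binding.

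PRAC and the noncoding NCRNA00253, the nearest neighbours of HOXB13, did not follow it in every line. PRAC, a small gene expressed in prostate and hindgut that lies 2245 bases from HOXB13, read 155.8 FPKM in PC3-EMT14 and 117.4 in PC3-Epi, a log2 difference of -0.41 where that of HOXB13 was -2.01. In the OVOL2 line it read 68.7 against 150.9 FPKM, a difference of -1.13 beside -1.45 for HOXB13, and in the OVOL1 line 115.3 against 152.5 FPKM, -0.40 beside -0.38. NCRNA00253, whose row ends 8 bases from that of HOXB13, differed by 0.59 log2 in PC3-Epi, -0.42 in the OVOL1 line and -0.96 in the OVOL2 line. On the far side, CALCOCO2 differed by -0.29, -0.07 and -0.26 log2. The strand setting of the counting is not given in the sources used here, so reads of these close neighbours may not be fully separated.

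**Figure D5:**
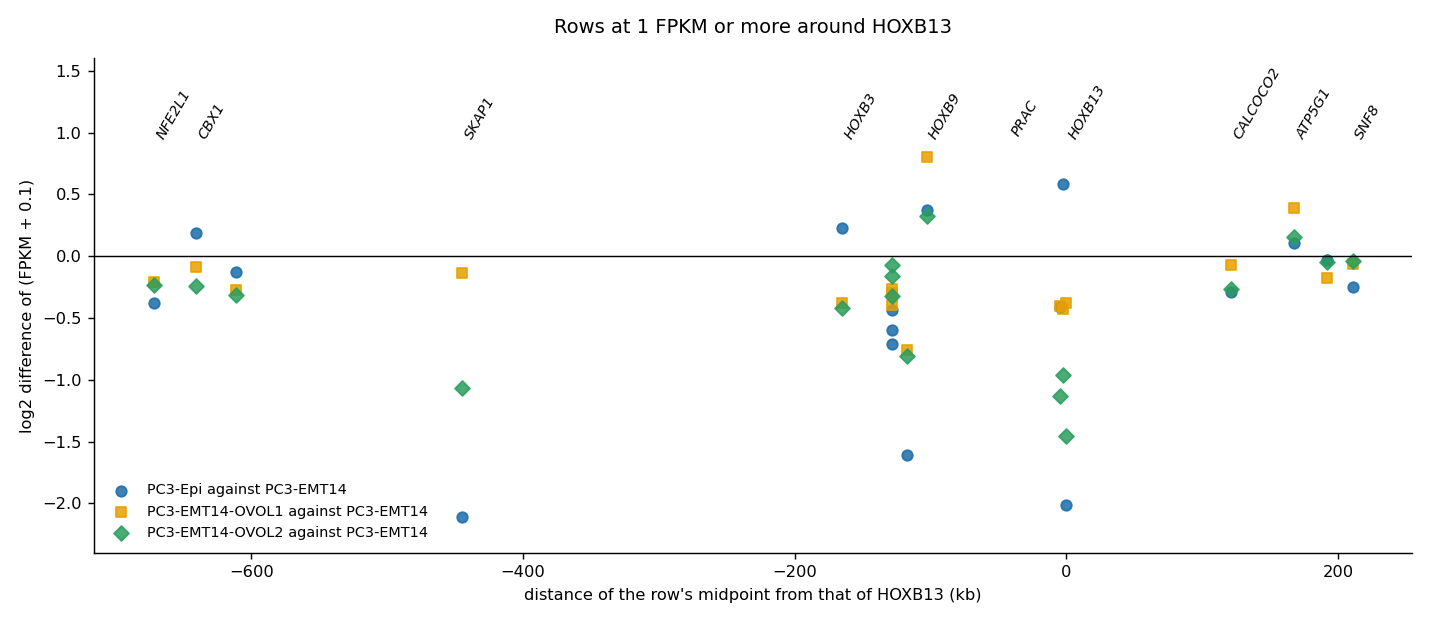
Log2 difference of (FPKM + 0.1) from PC3-EMT14 for the rows at 1 FPKM or more around HOXB13, by distance of their midpoint from that of HOXB13 (kb), in 3 lines. At 0 kb, HOXB13 reaches -2.01 in PC3-Epi beside PRAC at -0.41 and NCRNA00253 at 0.59, and SKAP1 at the left, which is at most 1.07 FPKM, reaches -2.11.

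Of the 26 flanking genes of the 4 clusters with 1 FPKM in the PC3-Epi comparison, 3 were past the fold, SKAP1, JAZF1 and CALCOCO1, all lower, beside 7.97% of all genes lower. SKAP1, a T cell adaptor gene beyond the anterior end of HOXB, differed by -2.11 log2 in PC3-Epi and -1.07 in the OVOL2 line. Beside HOXA, JAZF1 read 2.70 FPKM in PC3-EMT14 and 0.723 in PC3-Epi. Beside HOXC, CALCOCO1 read 13.6 FPKM in PC3-EMT14 and 5.18 in PC3-Epi, and NFE2 read 0.587 FPKM in PC3-EMT14 and 1.42 in the OVOL2 line of the same table. None of the 6 measured flanking genes of HOXD with 1 FPKM was past the fold in any comparison.

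The microRNA genes within the clusters encode small RNAs known to pair with HOX transcripts, and the miR-196 family is shown because 1 of its hairpins was the only one above 0 among the 6 HOX cluster microRNA rows checked. The mature sequences are from RefSeq, with the seed (bases 2 to 8, counted from the 5′ end) in capitals.
hsa-miR-196a-5p: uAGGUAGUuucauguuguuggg
hsa-miR-196b-5p: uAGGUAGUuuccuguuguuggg

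The 2 sequences share the seed AGGUAGU and differ by A12C, miR-196a given first. MIR196B, the hairpin between HOXA9 and HOXA10 (chr7:27209099-27209182, hg19), was listed at 0 in PC3-EMT14 and the OVOL1 line, at 22.3 FPKM in the OVOL2 line and at 188 FPKM in PC3-Epi. MIR196A1, MIR196A2, MIR10A, MIR10B and MIR615 were listed at 0 in every line. These are hairpin rows in an RNA-seq library and not counts of mature microRNA, and in so short a row a few reads make a high FPKM. Of 370 rows for hairpins, 348 were at 0 in both PC3-Epi and PC3-EMT14 and 15 were above 0 in 1 of them only. The long noncoding HOTAIR, transcribed from the HOXC cluster, read 0.779 FPKM in PC3-EMT14, 1.07 in PC3-Epi, 0.660 in the OVOL1 line and 1.13 in the OVOL2 line.

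Genes that work with or on HOX genes were counted beside the same background, 15.1% of all genes past the fold in PC3-Epi, 3.8% in the OVOL1 line and 7.04% in the OVOL2 line. Of 9 TALE homeodomain genes, whose proteins bind DNA together with HOX proteins, 7 reached 1 FPKM and 0 were past the fold in any comparison. MEIS2, one of them, read 3.92 FPKM in PC3-EMT14 and 7.04 in PC3-Epi. Among 26 Polycomb genes, which keep HOX genes silent, EED (5.69 against 16.0 FPKM) and CBX2 (5.83 against 15.4 FPKM) were higher in PC3-Epi than in PC3-EMT14, a share near the 7.13% of all genes that were higher, and 0 were past the fold in either OVOL line. None of 15 MLL and trithorax genes, which keep HOX genes active, and none of 8 CTCF and cohesin genes, which shape chromatin loops, was past the fold. The 5 retinoid receptor and CYP26 genes with 1 FPKM were also within 2-fold, while RARB, a retinoic acid receptor, read 0.860 FPKM in PC3-EMT14 and 0.026 in PC3-Epi, below the level at which a fold was counted. GMNN, which encodes geminin, a regulator of DNA replication that also binds HOX proteins, read 20.7 FPKM in PC3-EMT14 and 45.9 in PC3-Epi.

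Other genes of the prostate lineage were set beside HOXB13. TMPRSS2, a serine protease gene of luminal cells, lay opposite to HOXB13, at 0.967 FPKM in PC3-EMT14 and 5.50 in PC3-Epi. FOXA1 read 46.6, 69.5, 55.7 and 53.9 FPKM in PC3-EMT14, PC3-Epi, the OVOL1 line and the OVOL2 line, and KLK2 and KLK3, which encode secreted prostate kallikreins, were listed at 0 in all lines. The 12 macrophage markers were checked because PC3-EMT14 came from a co-culture. Only CD68, the most abundant of them, reached 1 FPKM, at 54.1 FPKM in PC3-EMT14, 13.2 in PC3-Epi, 51.2 in the OVOL1 line and 57.8 in the OVOL2 line. The other 11 were at 0.214 FPKM or less in every line, PTPRC at 0.016 and CD14 at 0.086 FPKM in PC3-EMT14, and the 12 summed to 54.6 FPKM in PC3-EMT14, 13.7 in PC3-Epi, 51.8 in the OVOL1 line and 58.4 in the OVOL2 line. CD68, which also marks lysosomes in other cells, was thus lower in PC3-Epi as HOXB13 was, and in the OVOL2 line it was not; the part of other cells in the HOX values was not tested.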

How the data were processed

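RNA-seq of 10 samples in 4 groups was used. The authors aligned paired-end reads to hg19 with TopHat and computed FPKM with Cuffdiff for each pair of groups, with bias and multi-read correction, normalisation to compatible hits and upper-quartile scaling. They deposited 4 gene tables and 4 isoform tables, which hold 1 pooled FPKM per group and no value per sample. The deposited tables also carry the authors' own fold changes, test statistics, p-values and q-values, which were not used. Groups were matched to table columns through the comparison each table is named for, since the column labels differ from the sample titles. Which samples entered each pooled value is not given in the sources used here, so the sample numbers are those of the labels.

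HOX rows were chosen by symbol, and a pseudocount of 0.1 FPKM was added before ratios. A row was past the fold at 2-fold with at least 1 FPKM in the higher group, and every HOX row at 1 FPKM in any table is named, together with OVOL1, OVOL2 and each gene past the fold from lists of HOX cofactors, regulators, neighbours and prostate genes. Cell type markers are given by their counts, with CDH1 and the macrophage genes CD68, PTPRC and CD14 named as examples after their values were seen. A few genes that this rule would name are not reported here, in the text or the plots, though counts and sums include them. The members and lists were chosen with earlier results of these data known. The step that counts rows past the fold was tested on values of PC3-EMT14 to which known differences had been given. The other steps were not tested in this way. Alternatives were other pseudocounts, floors and folds, centring on all genes, isoform sums and other tables. Python 3.11.15, pandas 2.3.3 and numpy 2.4.6 were used. Depth per sample is unknown, and no interval was computed.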

Additional observations from a re-analysis of the deposited data

How the results depend on the processing

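No paired analysis was possible because the tables hold pooled values without replicate numbers and no test was run, and no replicate could be left out for the same reason. The count of HOX rows past the fold in PC3-Epi against PC3-EMT14 was 3; it was 1 with a pseudocount of 1 FPKM, 7 with no floor, 1 with a floor of 5 FPKM, 8 at 1.5-fold and 1 at 4-fold. In PC3-EMT14-OVOL1 it was 0 and 2 at 1.5-fold. In PC3-EMT14-OVOL2 it was 1, and 2 with no floor, 3 at 1.5-fold and 0 at 4-fold, and in the OVOL2 line against the OVOL1 line it was 1 and 0 at 4-fold. The median log2 difference of the HOX rows in PC3-Epi, 0.20, was 0.13 with a pseudocount of 1 FPKM, 0 with no floor, 0.10 with a floor of 5 FPKM and 0.28 without rows that overlap another row, a setting chosen after seeing the data. In PC3-EMT14-OVOL2 the median, 0.12, was 0.030 with no floor and 0.32 without overlapping rows. In 54 other cases a count stayed within 1.5 times the main count or a median within 0.047 log2 of the main median, the largest difference of a HOX row between repeats of a line in other tables. That margin is wide for the small medians: in the OVOL1 line the median, -0.07, ranged from -0.10 with no floor to -0.03 without overlapping rows. No median took the opposite sign. Without the row of 3 symbols the HOXC sum was 16.6 FPKM in PC3-EMT14 and 26.7 in PC3-Epi. It was 16.8 FPKM in the OVOL1 line and 19.6 in the OVOL2 line. PC3-Epi stands in 1 gene table only, so it could not be taken from another table. HOXB13 alone passed the 4-fold and the 5 FPKM settings in PC3-Epi. With pooled values, unknown depth and no replicate spread, small differences and rows near 1 FPKM cannot be ranked against error.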
